A study of Rattus norvegicus with 27 samples.

Results

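The genes described here are 10 that encode the cadherins, receptors and partners by which neighbouring cells orient each other: Fat1, Fat3, Fat4, Dchs1, Celsr1, Celsr2, Celsr3, Vangl2, Fzd3 and Prickle2. They were chosen by symbol among the 36865 gene rows of the count table, because the study named Fat3 and Fzd3 among modulators of neuronal development and the other 8 work in the same pathways. Each had a row, and 9 had reads. The samples were medial prefrontal cortex (mPFC) of 27 adult male Wistar rats, an outbred strain, sampled in a resting state, and each rat gave 1 single-read RNA-seq library. All rats had passed through repeated anxiety tests (a light-dark box, an open field and a plus-shaped elevated maze) and were picked along their anxiety scores; these scores were not used here, there was no untested or control group, and the labels also carry the words learned helplessness as treatment. Rats are called by the number of their library. The tissue is a homogenate, so fewer cells of a type and less RNA per cell cannot be told apart in any level below.

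Planar cell polarity is the coordinated orientation of cells within a sheet. In one branch of the system the giant cadherins Fat and Dachsous (Dchs) bind each other across cell borders, and Fat proteins can also feed into Hippo signalling, which restrains growth. In the core branch the Celsr proteins, seven-pass cadherins, bind each other between cells, with a frizzled (Fzd) receptor on one side of the border and Vangl with Prickle on the other, and Dishevelled (Dvl) relays the signal inside. In the brain these genes are known for guiding axons and shaping dendrites, and several are still used at synapses of adult neurons.

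For 7 of the 10 genes, the RefSeq promoter table held an entry (9 entries, since Fat3 and Prickle2 had 2 each), while Dchs1, Celsr1 and Fzd3 had none. The 250 bases before the start of transcription are shown for Fat3 and Fat4, and for Celsr2 and Celsr3, as 2 pairs whose levels went together over the rats. For Fat3 the entry with the more upstream start is shown. Letters run 5′ to 3′ on the gene's strand, and capitals mark a GC box (GGGCGG, the letters bound by Sp1-type factors) read on either strand.
Fat3, GRCr8 chr8:21555241-21555490, minus strand: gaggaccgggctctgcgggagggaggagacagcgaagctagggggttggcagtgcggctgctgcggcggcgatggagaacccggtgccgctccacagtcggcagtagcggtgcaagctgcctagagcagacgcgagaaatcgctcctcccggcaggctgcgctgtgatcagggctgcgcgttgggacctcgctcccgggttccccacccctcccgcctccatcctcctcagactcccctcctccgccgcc
Fat4, GRCr8 chr2:123855039-123855288, plus strand: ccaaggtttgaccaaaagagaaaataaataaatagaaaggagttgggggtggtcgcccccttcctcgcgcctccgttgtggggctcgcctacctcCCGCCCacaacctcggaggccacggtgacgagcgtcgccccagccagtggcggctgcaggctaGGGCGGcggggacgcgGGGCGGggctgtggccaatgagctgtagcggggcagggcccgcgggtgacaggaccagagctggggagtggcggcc
Celsr2, GRCr8 chr2:198741383-198741632, minus strand: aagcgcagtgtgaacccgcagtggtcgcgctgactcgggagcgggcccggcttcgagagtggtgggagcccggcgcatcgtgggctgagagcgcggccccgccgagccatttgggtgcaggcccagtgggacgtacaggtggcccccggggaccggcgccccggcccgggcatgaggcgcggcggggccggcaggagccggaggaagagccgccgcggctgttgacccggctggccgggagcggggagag
Celsr3, GRCr8 chr8:118408886-118409135, plus strand: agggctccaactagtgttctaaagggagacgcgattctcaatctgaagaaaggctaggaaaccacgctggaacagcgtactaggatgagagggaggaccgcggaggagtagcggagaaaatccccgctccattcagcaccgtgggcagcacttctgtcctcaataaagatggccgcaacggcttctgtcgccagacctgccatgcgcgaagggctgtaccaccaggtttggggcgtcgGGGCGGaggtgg
The GC content was 70.0% for Fat3, 67.6% for Fat4, 76.4% for Celsr2 and 58.4% for Celsr3, against a median of 51.2% over all 33469 windows of this length. The GC box letters occurred 3 times for Fat4, 2 times for Vangl2, 1 time for Celsr3 and in each Prickle2 entry, and were not in the windows of Fat1, Fat3 or Celsr2. Of all windows, 30.5% held them. The CCAAT box (CCAAT) stood in the Fat4 window shown, in the other Fat3 entry and in the Prickle2 entry of lower GC content (34% of all windows), and the TATA box (TATAAA; 12.9% of all windows) in none of the 9 entries; both strands were read for each motif, and no motif contains another. Neither pair shown shared the GC box letters, which says nothing about the factors that bind them.

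Levels are given as normalized counts, that is, reads divided by a library's size factor. Because they were not divided by transcript length, they compare rats for the same gene, not genes with each other. Library totals ran from 4907255 to 12771309 counts, and the 16 libraries numbered up to 31 were all shallower than the 11 numbered from 32; this split by number is used only as a technical check. The study's methods speak of 2 cohorts of male Wistar rats, and since the labels do not tie a rat to a cohort, depth and cohort cannot be told apart in this split. Levels could also follow the library total inside a depth class. Within the shallower libraries, Spearman's rho with the total ran from 0.109 for Vangl2 to 0.632 for Fat1. It was 0.565 for Prickle2, 0.512 for Fat3, 0.438 for Celsr2 and 0.391 for Fzd3. Within the deeper libraries it ran from -0.545 for Dchs1 to 0.545 for Vangl2, with -0.400 for Celsr3. The part of the total in the relations below was not tested. The rats numbered 3 and 12 stood at the ends of many of the profiles. Rat 3 was the lowest of all 27 in 7 of the 9 genes with reads, and rat 12 the highest in 4. How many of all genes were at an end in these rats was not counted, so these counts do not set the 9 genes apart. Rat 3 also had the highest summed level of 8 oligodendrocyte markers (63144 normalized counts, against 17468 to 63144 over all rats, median 28760), the lowest sum of 8 excitatory neuron markers (12737, range 12737 to 24029, median 21278) and the highest share of counts in ribosomal protein genes (1.88%, range 1.02% to 1.88%, median 1.21%, over 204 rows), whereas rat 12 had the highest excitatory neuron sum and the lowest ribosomal protein share. The part of these measures in the results was not tested.

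Among the Fat cadherins, Fat1 was held within a narrow range, whereas Fat3 differed more than 5-fold between rats. Fat1 (gene ID 83720), which is known for cell adhesion and actin control, had 557 ± 56.0 normalized counts (mean ± SD, n = 27), with a lowest value of 473 in rat 3, a median of 547 and a highest of 712 in rat 5. Fat3 (gene ID 191571), known for shaping the dendrites of retinal amacrine cells, had 152 ± 59.7, from 59.6 in rat 3 over a median of 152 to 314 in rat 12. The 4 rats with the most Fat3 were 12 (314), 13 (261), 15 (249) and 20 (214), and the highest value was 5.27 times the lowest. Fat4 (gene ID 310341), the main partner of Dchs1, had 98.9 ± 23, from 44.3 in rat 3 over a median of 92.2 to 144 in rat 20, with its next highest values in rats 13 (137) and 12 (133). Fat4 had 2 rows in the table, and all its reads lay in 1 of them. Dchs1 (gene ID 308912), the cadherin that Fat4 binds, had 166 ± 22.7, from 128 in rat 3 over a median of 160 to 214 in rat 24. Its order differed from that of the Fat genes: rat 20, highest for Fat4, was the third lowest for Dchs1 at 133.

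Of the Celsr cadherins, Celsr2 and Celsr3 were well counted and Celsr1 was listed at 0. Celsr2 (gene ID 83465), known for maintaining dendrites, had 1935 ± 388, and its low tail was long: rat 3 had 815, rat 18 had 1186 and rat 19 had 1228, while the median was 1989 and the highest value 2471, in rat 12. Celsr3 (gene ID 83466), known for the formation of axon tracts, had 1274 ± 212, from 807 in rat 3 and 905 in rat 20 over a median of 1291 to 1763 in rat 51. Celsr1 (gene ID 300128) had no read in any of the 27 libraries. Sst, a gene that marks a large class of cortical interneurons, was also at 0 in all of them, as were 21787 rows (59.1% of the table), so the 0 of Celsr1 was not read as lack of expression and no upper limit was set from it.

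The receptor Fzd3 (gene ID 266715), known as the partner of Celsr3 in axon guidance, had 55.0 ± 25.8 normalized counts, from 25.3 in rat 54 over a median of 47.3 to 144 in rat 12. Its 4 highest rats were the same 4 as for Fat3, in the same order, namely 12 (144), 13 (96.4), 15 (96.4) and 20 (91.4). The highest of them stood clear of the other 26 rats, and the highest value was 5.70 times the lowest. Vangl2 (gene ID 289229), the membrane protein opposite frizzled, was the least counted gene, with 11 to 67 reads per library and 23.6 ± 7.43 normalized counts, from 12.3 in rat 20 over a median of 23.1 to 44.9 in rat 43. Prickle2 (gene ID 312563), the cytoplasmic partner of Vangl that is also found at postsynaptic sites, had 2300 ± 195, from 1714 in rat 3 over a median of 2272 to 2635 in rat 12. It varied little, and the next lowest rat after rat 3 was 19, at 2023.

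**Figure D1:**
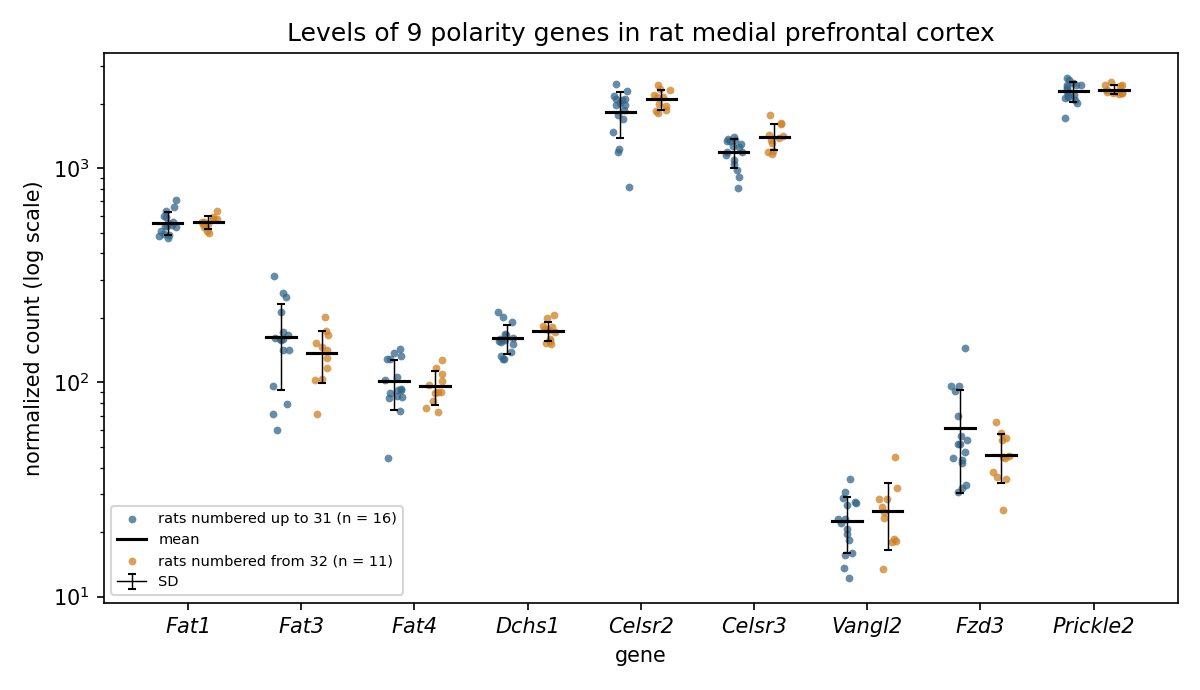
Normalized counts of the 9 genes with reads, on a log axis, with 1 point per rat; blue points are the 16 rats numbered up to 31 and orange points the 11 from 32, and black bars give the mean and SD of each. Fat3 and Fzd3 spread over more than 5-fold, whereas Fat1 and Prickle2 stayed within 1.51-fold and 1.54-fold from lowest to highest.

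The next question was how much of this spread between rats was more than the error of counting reads. All 9 genes with reads spread beyond counting error (a chi-square test of the counts against Poisson error, adjusted by Benjamini-Hochberg), but so did 89.8% of the 11730 genes whose counts averaged 10 or more, so that this does not set them apart. On the log2(normalized count + 1) scale the SD was 0.58 for Fat3 and 0.56 for Fzd3, wider than in 95.1% and 94.5% of the genes, respectively, whose median SD was 0.19. Fat4 and Celsr2 followed with an SD of 0.35 each, wider than in 80.7% of the genes. Vangl2 had an SD of 0.43, but counting error made up 43.9% of its variance, against 33.1% for Dchs1, 19.2% for Fat4, 18.2% for Fat1, 8.46% for Fzd3, 6.23% for Prickle2, 4.39% for Fat3, 2.92% for Celsr3 and 1.32% for Celsr2. Celsr3 (0.25), Dchs1 (0.19), Fat1 (0.14) and Prickle2 (0.13) were wider than in 66.0%, 51.6%, 27.9% and 21.2% of the genes. Estimated by edgeR, the variation beyond counting was 35.5% of the mean for Fat3 and 36.6% for Fzd3, with a median of 11.4% over 11292 genes, and these 2 values were above 97.2% and 97.4% of them.

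Whether the levels differed between the shallower and the deeper libraries was tested with edgeR's quasi-likelihood test over 11716 genes. Celsr3 was the only gene of the 9 called, with 1184 ± 177 normalized counts in the 16 rats numbered up to 31 and 1404 ± 195 in the 11 rats from 32 (log2 difference 0.24 ± 0.08 SE, adjusted p = 0.0279). Of all genes, 18% were called in this comparison, 8.85% as higher in the later libraries and the rest as lower, so a count of 1 in 9 is near the background. The call for Celsr3 did not hold without rats 12 and 20 (0.21, edgeR adjusted p = 0.0632). Fzd3 had 61.5 ± 30.9 in the early and 45.6 ± 11.7 in the later libraries, a log2 difference of -0.43 ± 0.21 SE that did not pass (edgeR adjusted p = 0.145), and its 4 highest rats were all early. Fat3 had 163 ± 70.3 and 137 ± 37.4, respectively, with a log2 difference of -0.26 ± 0.20 SE (edgeR adjusted p = 0.411). The remaining 6 genes had log2 differences from -0.08 for Fat4 to 0.20 for Celsr2, with edgeR adjusted p from 0.234 to 0.959.

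Fat3 and Fzd3 went up and down together over the rats. Spearman's rho was 0.766 and Pearson's r of the log2 values 0.756 (n = 27, two-sided permutation p = 1e-05, the smallest that 100000 permutations can give, and 2e-05), and r was 0.781 when rats 3 and 32, farthest from Fat3's median, were left out. In the 16 early libraries rho was 0.80 and r 0.821 (permutation p = 0.00039 and 0.00013), and in the 11 later ones rho was 0.655 (permutation p = 0.0329) and r 0.496, which did not pass (permutation p = 0.122). Without the 3 highest rats 12, 13 and 15, rho was 0.667. In edgeR fits over all genes, Fzd3 was higher by 0.46 ± 0.07 (log2, SE) per SD of Fat3 (adjusted p = 1.03e-05), and Fat3 by 0.42 ± 0.06 per SD of Fzd3 (adjusted p = 4.72e-05). The study had named both genes for their relation to anxiety scores of these same rats, so that their mutual relation is not independent of how they were chosen. Fat4 also went with Fat3 (rho = 0.717, permutation p = 8e-05; r = 0.743, permutation p = 1e-05), with rho = 0.844 in the early and 0.436 in the later libraries. The slopes of Fat4 on Fat3 in the 2 depth classes did not differ beyond their error (-0.16 ± 0.11 log2 per SD, SE, later minus early, edgeR adjusted p = 0.522). Fat4 and Fzd3 had rho = 0.598, with 0.641 in the early and 0.564 in the later libraries.

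The other close pair was Dchs1, of the Fat branch, and Celsr3, of the core branch. They had rho = 0.689 (permutation p = 5e-05) and r = 0.698 (permutation p = 4e-05), with r = 0.717 without rats 24 and 51. Here the depth classes were alike, with rho = 0.665 in the early and 0.664 in the later libraries. Celsr3 was higher by 0.17 ± 0.03 (log2, SE) per SD of Dchs1 (edgeR adjusted p = 0.00108). Celsr2 and Celsr3 had rho = 0.585 and Dchs1 with Celsr2 rho = 0.474, both called by edgeR in either direction.

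**Figure D2:**
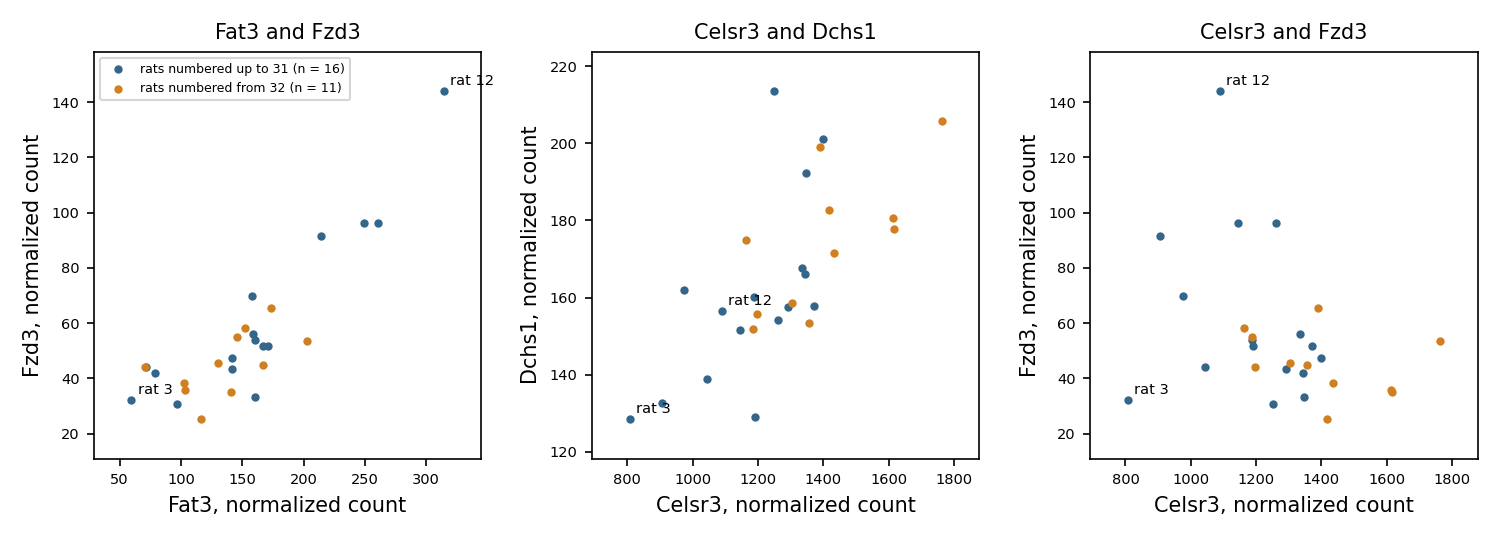
Normalized counts of Fat3 against Fzd3, Celsr3 against Dchs1, and Celsr3 against Fzd3, with 1 point per rat, blue for the 16 rats numbered up to 31 and orange for the 11 from 32; rats 3 and 12 are named. Spearman's rho over the 27 rats was 0.766, 0.689 and -0.415, respectively.

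Fat4 and Dchs1, although known as receptor and ligand, did not go together over these rats (rho = -0.129, permutation p = 0.522; r = 0.0856, permutation p = 0.673; edgeR adjusted p = 0.88 and 0.985). Fat3 and Dchs1 had rho = -0.117. The axon guidance partners Celsr3 and Fzd3 had the lowest rho of all pairs, -0.415 (permutation p = 0.0321), with -0.276 in the early and -0.50 in the later libraries, and edgeR did not call them (adjusted p = 0.0762 for Fzd3 on Celsr3 and 0.192 for Celsr3 on Fzd3). Rat 3, which was low in both, decided that call: without it rho was -0.562, Fzd3 was lower by 0.32 ± 0.09 (log2, SE) per SD of Celsr3 (edgeR adjusted p = 0.0133), and Celsr3 was lower per SD of Fzd3 (edgeR adjusted p = 0.0279). Leaving out rat 3 was chosen after its values were seen. Without rats 12 and 20 the relation was weaker: rho was -0.327, and Fzd3 was at -0.11 per SD of Celsr3 (edgeR adjusted p = 0.429). With the depth class as a covariate Fzd3 was at -0.18 (edgeR adjusted p = 0.329). The genes that passed as lower in the 2 fits without rat 3 were 11.2% of all tested for Celsr3 and 7.26% for Fzd3.

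Over all 9 genes there were 36 pairs, of which 26 had a positive rho, with a median of 0.311. Read both ways, edgeR called 27 of the 72 ordered combinations, each of them positive, where 20.1% of all gene tests in the 9 fits were called and 10.5% were called positive. The share of all genes called was 34.4% along Celsr2, 30.8% along Prickle2, 26.9% along Celsr3, 21.8% along Fat3, 20.2% each along Fat4 and Dchs1, 15.4% along Fzd3 and 10.9% along Fat1. Without rat 3 these shares were 15.9% along Celsr2, 6.99% along Prickle2, 21.6% along Celsr3, 13.4% along Fat3, 4.59% along Fat4, 16.3% along Dchs1, 16% along Fzd3 and 1.57% along Fat1. Without rats 12 and 20 the share along Fzd3 was 3.29%, that along Fat3 12.5% and that along Fat4 11.8%. Grouped after their values were seen, 2 sets of genes could be told: the 10 pairs among Fat1, Fat3, Fat4, Fzd3 and Prickle2 had rho from 0.419 to 0.766, and the 3 pairs among Dchs1, Celsr2 and Celsr3 from 0.474 to 0.689. In the first set edgeR called 8 of the 10 pairs both ways, the others being Fat1 with Fzd3 and Fat1 with Prickle2; without rat 3 it called 4 both ways and 7 at least one way, and none of the other 8 genes along Fat1 (4 at an unadjusted p under 0.05). In the second set all 3 pairs were called both ways, also without rat 3. In the later libraries the pairs of Prickle2 within its set were weaker. Their rho there was 0.109 with Fzd3, 0.191 with Fat3, 0.209 with Fat1 and 0.282 with Fat4. Dchs1 with Celsr2 had 0.173 there, and the other pairs within the sets ran from 0.436 to 0.8. Over all rats Fat1 had a higher rho with Celsr2, of the other set (0.490), than with Fzd3 (0.419) or Prickle2 (0.463). The 15 pairs between these sets ran from -0.415 to 0.490 with a median of -0.00611, and 2 of them were called, Fat1 with Celsr2 and Celsr2 with Prickle2. Both pairs lost their calls without rat 3. For Fat1 and Celsr2 the edgeR adjusted p, 0.0499 and 0.0201 over all rats, became 0.202 and 0.110 without it, and the call of Celsr2 on Fat1 was also lost with DESeq2 size factors (0.0541), with no filter on low counts (0.0677) and without rats 12 and 20 (0.0870). For Celsr2 and Prickle2, r was 0.693 but rho 0.388 over all rats, rho was 0.314 without rat 3 and -0.136 in the later libraries, and edgeR's adjusted p rose to 0.112 and 0.136 without it. Vangl2 was called once in 8 pairs, as higher with Celsr2 (0.22 ± 0.09 log2 per SD, SE, edgeR adjusted p = 0.0464). That call was lost in 5 of the 7 alternatives, among them DESeq2 (adjusted p = 0.0578), the depth class as a covariate (0.0753) and leaving out rat 3 (0.0616). No gene of the 11963 tested followed Vangl2 in edgeR (1019 at an unadjusted p under 0.05; 1 in DESeq2). Its rho was 0.405 with Celsr2 (permutation p = 0.0381) and 0.380 with Fat1 (permutation p = 0.0524). The rest of its pairs ran from -0.0574 to 0.302. With 11 to 67 reads per library and 43.9% of its variance from counting, relations of Vangl2 may go unseen.

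**Figure D3:**
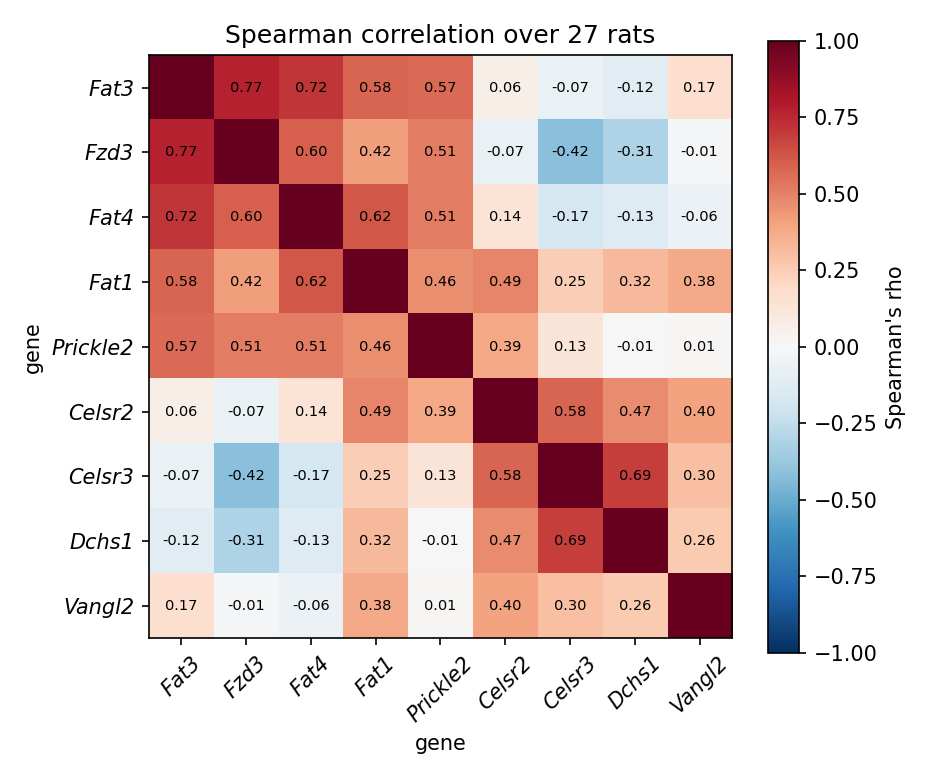
Spearman's rho for each pair of the 9 genes over 27 rats, from blue (negative) to red (positive), with the value printed in each field. The 5 genes at the top left, Fat3, Fzd3, Fat4, Fat1 and Prickle2, had only positive values among themselves, and the field of Celsr3 with Fzd3 was the lowest at -0.415.

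Of the settings tried, leaving out rat 3 moved the calls most. Without it, 19 ordered combinations were called, 17 of the 27 and, newly, Celsr3 with Fzd3 both ways as negative. The share over all genes in the 9 fits fell as well, from 20.1% to 10.7%. Fat3 with Fzd3, Fat4 with Fzd3 and Fat3 with Fat4 were among the 17, as were the 3 pairs among Dchs1, Celsr2 and Celsr3. Whether the slope of any gene on Fat3 or on Fzd3 differed between the depth classes was tested by an interaction term: of 12218 genes none passed in edgeR for Fat3 (1746 at an unadjusted p under 0.05) or for Fzd3 (537), which is 0% called, and the slope of Fzd3 on Fat3 differed by -0.23 ± 0.16 log2 per SD (SE, later minus early, adjusted p = 0.538).

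**Figure D4:**
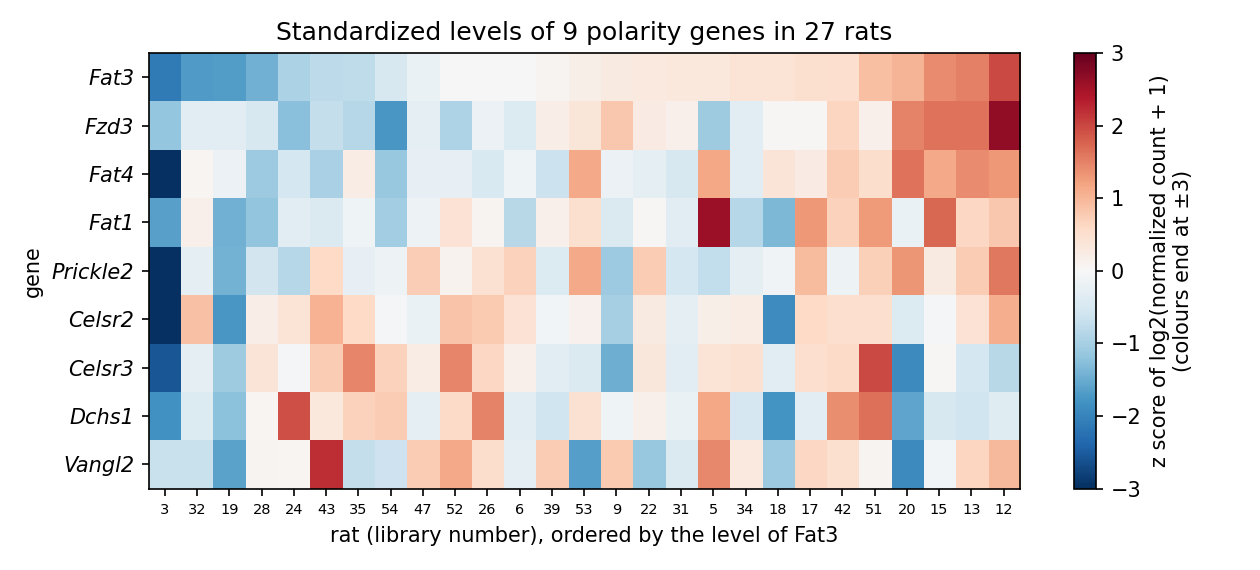
Levels of the 9 genes as z scores of log2(normalized count + 1), from blue (low) to red (high), in the 27 rats ordered from left to right by Fat3. Fzd3 and Fat4 are red in the 4 rats at the right end (20, 15, 13 and 12), where Celsr3 and Dchs1 are pale or blue, and rat 3 at the left end is blue in each row.

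Each of the genes had closer companions outside the list than within it. Among genes averaging 50 normalized counts or more, the 5 whose levels ranked most like Fat3 were Otud4, a deubiquitinase gene (rho = 0.947), Cpeb4, which encodes a regulator of mRNA translation (0.931), Phlpp2, a phosphatase of Akt (0.930), Atm, the DNA damage kinase (0.928), and Zfp483, a zinc finger gene (0.908), out of 9845. Fzd3 ranked 166th and Fat4 277th in that order. Fzd3's nearest were Klhl11 (0.886), the potassium channel gene Kcnq3 (0.886), the calcium channel subunit gene Cacnb4 (0.880), the glutamate receptor gene Grm5 (0.866) and the sodium channel gene Scn3a (0.861), and Fat3 ranked 62nd. Fat4 was nearest to Sestd1 (0.892) and to the lipoprotein and reelin receptor gene Vldlr (0.811), with Fat3 15th. Fat1 was nearest to Zhx3 (0.835) and the ciliary transport gene Wdr19 (0.811).

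For the Celsr genes the nearest included a synaptic gene. Celsr2 went with Nlgn2, a postsynaptic adhesion protein of inhibitory synapses (0.897). Celsr3 went with Mcf2l, a guanine nucleotide exchange factor gene (0.944), and Ubp1, a transcription factor gene (0.930). Dchs1 went with Tnrc18 (0.860) and the histone methyltransferase gene Dot1l (0.828), with Celsr3 86th. Prickle2 was nearest to Mfsd4a and the RNA-binding Zmat3 (0.845 each), and Vangl2 to Dip2a (0.675) and Syt6 (0.671), of 9846 genes. These ranks describe 27 rats that share depth classes and tissue pieces, and no test was made of them. Within the early libraries rho of Otud4 with Fat3 was 0.941 and within the later 0.955, and for Mcf2l with Celsr3 0.938 and 0.964, whereas it was 0.944 and 0.573 for Mfsd4a with Prickle2, 0.850 and 0.618 for Vldlr with Fat4, and 0.888 and 0.682 for Zhx3 with Fat1. The transcript lengths behind the counts are not given in the sources used here, so whether the genes that go with Fat3 and Fzd3 are alike in length was not tested.

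Since tissue pieces can differ in their cells, each gene was set against 8 marker scores (oligodendrocyte, astrocyte, microglia, meningeal fibroblast, endothelial and mural, interneuron, excitatory neuron, ependymal and choroid plexus). edgeR called 9 of the 72 combinations, all positive and all with the 2 neuron scores, where 6.87% of all gene tests were called. With the excitatory neuron score, 5 genes were higher per SD: Fat3 by 0.36 (log2), Fzd3 by 0.30, Celsr2 by 0.29, Fat4 by 0.19 and Prickle2 by 0.10; 32.9% of all genes were called with this score, 16.3% as higher. With the interneuron score 4 were higher, namely Fzd3 by 0.38, Fat3 by 0.34, Fat4 by 0.20 and Prickle2 by 0.09, and 13.8% of all genes were called, 6.97% as higher. Dchs1, Celsr3, Vangl2 and Fat1 were called with none of the scores, Fat1 narrowly so for the excitatory neuron score (0.07, edgeR adjusted p = 0.052). With the 6 other scores no gene of the 9 was called, and 1.32% of all gene tests were. Without rat 3 only 2 of the 9 calls remained, Celsr2 and Prickle2 with the excitatory neuron score, and without rats 12 and 20 there were 5, of which 4 were among the 9. Over all genes the share called without rat 3 fell too, to 0.243% with the interneuron score and 13.3% with the excitatory neuron score, and without rats 12 and 20 it was 6.06% and 30.1%.

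**Figure D5:**
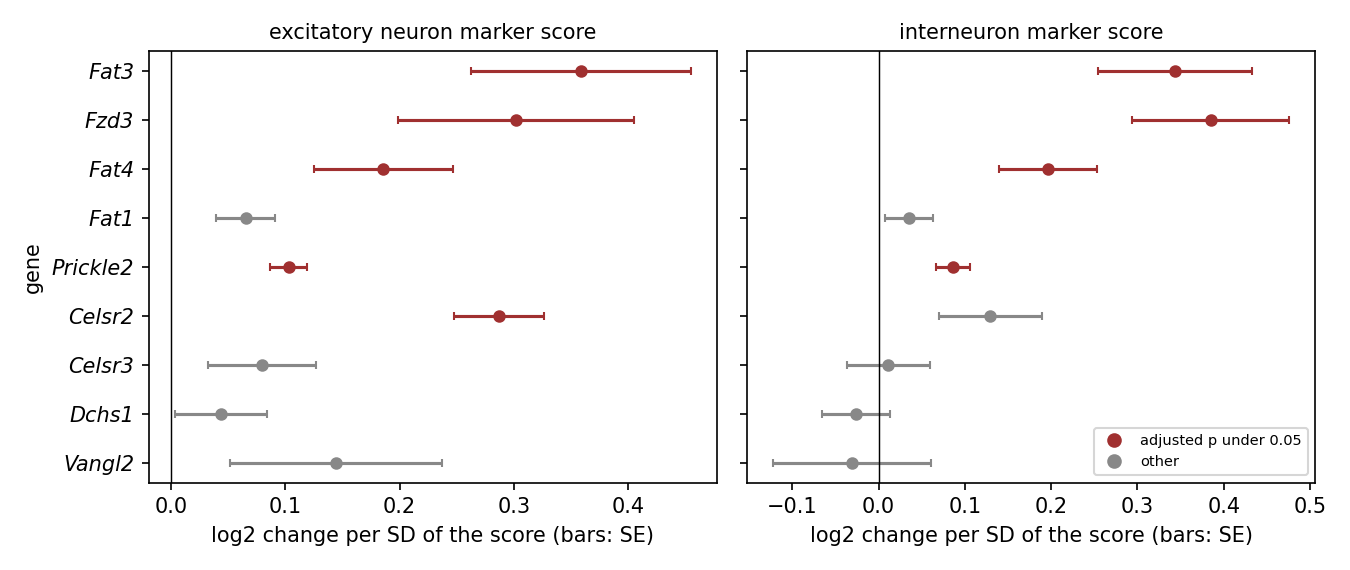
Log2 change of each gene per SD of the excitatory neuron score (left) and the interneuron score (right) in edgeR, with bars for SE; red points passed at an adjusted p under 0.05. Fat3, Fzd3, Fat4 and Prickle2 passed in both panels and Celsr2 with the excitatory neuron score alone.

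The labelled tissue carried its defining markers: all 8 excitatory neuron markers had reads, Slc17a7, the vesicular glutamate transporter of cortical neurons, at 7479 to 13608 normalized counts, as did 7 of 8 interneuron markers, with Sst at 0. Summed levels ran from 5340 to 7210 for the interneuron list, 21972 to 34729 for astrocytes, 1590 to 2573 for microglia, 2040 to 4068 for endothelial and mural cells, 290 to 6124 for meningeal fibroblasts and 9.83 to 59.1 for ependyma and choroid plexus, where Folr1 was at 0. The meningeal sum was highest in rat 24, which was also the highest for Dchs1 and the second lowest for Fzd3, and its part in those levels was not tested.

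Single markers moved unevenly. With Fat3, 3 of the 7 interneuron markers with reads rose, Gad2 by 0.34, Reln by 0.13 and Gad1 by 0.07 (log2 per SD), of which Gad1 and Gad2 encode the enzymes of GABA synthesis. Of the 8 excitatory markers 2 rose with Fat3, among them Rorb (0.22), while the abundant Slc17a7 and Camk2a were not called. Without rats 12 and 20, 2 interneuron markers and 1 excitatory marker rose with Fat3 in edgeR, against 12.5% of all genes called. No microglia marker was called there (2 at an unadjusted p under 0.05). The microglia marker Aif1 (-0.09) and the endothelial marker Cldn5 (-0.13) fell with Fat3, against 21.8% of all genes called, and neither was called without rat 3 (edgeR adjusted p = 0.243 and 0.114). Without it 3 other markers were called lower with Fat3, Pdgfrb (-0.14) and Acta2 (-0.65) of the 7 endothelial and mural markers and Col1a1 (-0.52) of the 8 meningeal fibroblast markers, against 13.4% of all genes. Gad1, Gad2, Reln and Rorb also rose with Fzd3, but without rats 12 and 20 no interneuron or excitatory marker was called with it in edgeR (2 of each list at an unadjusted p under 0.05). The astrocyte glutamate transporter gene Slc1a2 rose too, by 0.44 with Fat3 and by 0.38 with Fzd3, as the only one of the 7 astrocyte markers. With Celsr2, 5 of 8 excitatory markers rose, among them Slc17a7 (0.16) and Camk2a (0.33). Of its 8 oligodendrocyte markers 3 fell, among them Mbp (-0.19) and Mal (-0.20), as did 1 of 7 astrocyte, 2 of 6 microglia and 1 of 7 endothelial and mural markers, while the microglia marker Cx3cr1 (0.25) rose, and of the 7 interneuron markers 3 rose, among them Gad2 (0.31), and Pvalb (-0.12) fell, against 34.4% of all genes called. Without rat 3 none of the oligodendrocyte, astrocyte or endothelial and mural markers was called with Celsr2 in edgeR (0 at an unadjusted p under 0.05), and 4 excitatory markers, 1 interneuron and 1 microglia marker rose. With Prickle2, 7 of 8 oligodendrocyte markers fell, among them Opalin (-0.23), Mbp (-0.22) and Mal (-0.22), and 5 of 8 excitatory markers rose, among them Camk2a (0.20) and Slc17a7 (0.12). With it 2 of 7 astrocyte, 2 of 6 microglia and 1 of 7 endothelial and mural markers also fell, and of the 7 interneuron markers Gad2 (0.35), Reln (0.17) and Gad1 (0.05) rose and Pvalb (-0.11) fell, against 30.8% of all genes called. Rat 3, the lowest for Prickle2 and the highest in the oligodendrocyte sum, decided most of these calls: without it none of the 8 oligodendrocyte markers was called in edgeR (0 at an unadjusted p under 0.05), 1 excitatory and 2 interneuron markers rose and 2 microglia markers fell, against 6.99% of all genes. Without rats 12 and 20, 2 of the 7 interneuron markers rose with Prickle2 and 0 fell in edgeR (4 at an unadjusted p under 0.05). The fall of Pvalb was thus not called there, against 27.8% of all genes called. The fits along the oligodendrocyte score itself did not call Prickle2 or Celsr2. With Celsr3, 2 of 8 oligodendrocyte markers fell, among them Mal (-0.18), as did 1 of 7 astrocyte markers, Aqp4 (-0.13), and 1 of 6 microglia markers, Aif1 (-0.09), against 26.9% of all genes called. Of the neuron markers Slc32a1 (0.09) and Cux2 (0.19) rose, and Pvalb (-0.13) and Neurod6 (-0.10) fell. With the depth class as a covariate, 1 excitatory marker rose and 1 fell with Celsr3, and no marker of the oligodendrocyte, astrocyte, microglia or interneuron lists was called in edgeR (5, 1, 2 and 1 at an unadjusted p under 0.05). Without rat 3 no oligodendrocyte, microglia or interneuron marker was called with Celsr3 (0, 0 and 2 at an unadjusted p under 0.05). With Dchs1, against 20.2% of all genes, Cx3cr1 (0.18), Pdgfrb (0.15) and Slc32a1 (0.09) rose and Vip (-0.17) and Neurod6 (-0.12) fell. With the depth class as a covariate, 0 of the 7 interneuron markers rose with Dchs1 and 1 fell in edgeR (2 at an unadjusted p under 0.05). The rise of Slc32a1 was thus not called there, against 14.5% of all genes called. The share of counts in ribosomal protein genes was lower where the genes were higher. The relation was closest for Prickle2 (rho = -0.833), Celsr2 (-0.634) and Fat1 (-0.508), against -0.393 for Fat3 and -0.290 for Fzd3. The share of counts in the 20 most counted genes, highest in rat 3 (5.47%), had another order. Its rho was -0.673 for Dchs1, -0.561 for Celsr3, -0.540 for Celsr2, -0.433 for Fat1 and -0.405 for Vangl2. It was -0.206 for Prickle2, -0.145 for Fat3, -0.0897 for Fat4 and 0.0336 for Fzd3. Both shares and the levels come from the same libraries, and their part in the relations was not tested.

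Of 54 further genes of the same pathways, 53 had a row, 3 were at 0 throughout (Dchs2, Daam2 and Wnt5a) and 46 averaged 10 normalized counts or more. In the lists, levels ran from 3.64 ± 2.36 for Fat2 to 1011 ± 81.9 for Fjx1, a secreted partner of Fat signalling, among 13 Fat, Dachsous and Hippo genes, from 34.6 ± 8.95 for Vangl1 to 1599 ± 97.2 for the GTPase gene Rac1 among the 16 core genes with a row, and from 5.37 ± 2.95 for the coreceptor gene Ror1 to 4978 ± 477 for the secreted Wnt modulator gene Dkk3 among 24 receptors, coreceptors and ligands, leaving aside the genes at 0. Between depth classes, 7 of the 46 tested were called, against 18% of all genes. Higher in the later libraries were Dvl1 (0.16) and Wnt10a (0.53). Lower were the receptor gene Fzd7 (-0.89), Rhoa, a GTPase of polarity signalling (-0.61), Mob1a (-0.18), Lix1l (-0.16) and Rac1 (-0.14).

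With Fat3, 4 of 47 tested pathway genes rose and 1 fell, against 21.8% of all genes called. Lrp6, the Wnt coreceptor gene, rose by 0.38 ± 0.04 (log2 per SD, SE, edgeR adjusted p = 7.5e-08), and Tead1 (0.36), the Hippo kinase gene Lats1 (0.12) and Dkk3 (0.08) rose as well, while Fzd2 fell by 0.13. The call of Tead1 (edgeR adjusted p = 0.0431) was lost without rat 3, without rats 12 and 20 and with the depth class as a covariate, that of Fzd2 without rat 3 and that of Dkk3 without rats 12 and 20. Without rat 3 Dvl1 was called lower with Fat3 (-0.08). With Fzd3, Lrp6 (0.28), Lats1 (0.10) and Dkk3 (0.08) rose and 4 core genes fell, Dvl2 (-0.12), Dvl1 (-0.10), Scrib (-0.09) and Fuz (-0.08), of 48 tested and against 15.4% of all genes. Without rats 12 and 20, only Lrp6 and Dvl1 of these 7 were called with Fzd3, against 3.29% of all genes. Lrp6 also rose with Fat4 (0.32) and Fat1 (0.24), though its call with Fat1 was lost without rat 3 (edgeR adjusted p = 0.0817). The median change per SD of Fat3 over the 47 genes was -0.018, with -0.0062 over all genes tested.

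With Celsr3, 6 of 48 pathway genes tested rose and 5 fell, against 26.9% of all genes called. All 6 that rose were among the 15 core genes, namely Dvl3 (0.23), Dvl2 (0.13), Smurf1 (0.12), Scrib (0.11), Dvl1 (0.10) and Ankrd6 (0.09), while Rhoa (-0.21), Rac1 (-0.05), Fzd1 (-0.11) and the Hippo genes Mob1a (-0.09) and Sav1 (-0.06) fell. Dvl1, Rhoa, Rac1 and Mob1a differed between the depth classes as well, as Celsr3 itself did. With the depth class as a covariate 5 pathway genes rose with Celsr3 and none fell, Dvl2 being the one lost among those that rose (edgeR adjusted p = 0.0595), against 16.2% of all genes. With Dchs1, 6 of 47 pathway genes rose and none fell, against 20.2% of all genes, and 5 of the 6 were core genes: Dvl3 (0.24), Ptk7 (0.13), Scrib (0.11), Dvl1 (0.09) and Smurf1 (0.09). The other was Lrp5 (0.11), whose call was lost without rats 12 and 20 (edgeR adjusted p = 0.0694). Without rat 3, 8 pathway genes rose with Dchs1, among them Dvl2 (0.13) and Fzd2 (0.14), and Dkk3 fell (-0.07), and without rats 12 and 20, 9 rose, of which 8 were core genes, and none fell. Dvl1 and Scrib rose with Celsr3 and with Dchs1 and fell with Fzd3 (Scrib not without rats 12 and 20, edgeR adjusted p = 0.149), in fits that use the same 27 rats and are not independent of each other.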

How the data were processed

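RNA was sequenced from mPFC tissue of 27 rats, 1 library each. The authors deposited raw read counts per gene, made with Trimmomatic, STAR and HTSeq according to the submitters' processing notes; versions, genome build and strand setting are not given in the sources used here. Labels and paper name different library kits. Counts were divided by DESeq2 median-of-ratios size factors for levels and correlations, and tested as deposited with edgeR 4.0.16 (quasi-likelihood test, filterByExpr, TMM), with Benjamini-Hochberg adjustment over all genes tested in a fit. Continuous covariates were z scores of log2(normalized count + 1) of a gene or of mean marker scores. DESeq2 1.42.0 was an alternative. Permutation tests (two-sided, 100000 permutations) were run in scipy 1.17.1. The sources used here do not say how the libraries were batched or which rat came from which of the study's 2 cohorts, so the split after number 31 marks depth and may also follow cohort or batch, and p-values measure the spread between rats.

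Named were all 10 genes, the 5 nearest genes of Fat3 and Fzd3 and 2 nearest of each other gene (mean of at least 50), and of the pathway lists the genes called between depth classes and the highest and lowest by mean. Some genes that this rule or the marker lists hold are not reported here. Those named as following a gene were chosen after their values were seen. Genes and lists were chosen with earlier results of these data known. A row with several loci was taken as the one with most reads. The fewest reads per library were 11 for Vangl2 and 21 for Fzd3, and counting error took its largest shares of the variance in Vangl2 (43.9%) and Dchs1 (33.1%). Counts of 11730 genes, independent of each other and with the same dispersion, were simulated with 200 changed by 0.5 log2 per unit. From these edgeR recovered 193 between depth classes, 200 along Fat3 and 200 along the oligodendrocyte score, with 7, 16 and 7 false calls. In a separate simulation 200 genes were given spread beyond counting error, and the dispersion test recovered 194 of them, with 7 false calls. Real genes go together and differ in spread, so these rates do not give the power or the false calls in these data. Promoter sequences came from RefSeq (GRCr8).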

Additional observations from a re-analysis of the deposited data

How the results depend on the processing

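With 27 libraries in 1 group, no result rests on few replicates, but single rats mattered. Without rats 12 and 20, the count of these genes called between depth classes went from 1 to 0 and the count of gene and marker score combinations from 9 to 5; without rat 3, an alternative chosen after seeing the data, the latter went to 2. Of the ordered combinations of genes, 27 in the report, 26 were called with DESeq2, with DESeq2 size factors in edgeR and with the library-number class as a covariate, 24 with no filter on low counts, 27 with a pseudocount of 0.1, 25 without rats 12 and 20 and 19 without rat 3. The difference of Fat1 between depth classes, 0.0054 on the log2 scale, turned to -0.0061 with oligodendrocyte and meningeal fibroblast scores as covariates and to -0.0020 without rat 3, far within its SE of 0.05. All 9 genes spread beyond counting error under each scaling (TMM, total counts), without the filter and without these rats. The pathway and marker genes were refitted without rat 3, without rats 12 and 20 and with the depth class as a covariate, chosen after seeing the data; along Prickle2, where 7 pathway genes rose and 7 fell, edgeR called 0 of 47 without rat 3 (7 at an unadjusted p under 0.05), and along Fzd3 the 7 called became 2 without rats 12 and 20. No paired analysis was possible because the samples form 1 group. Other causes were not tested. Depth limits Vangl2 and Dchs1, with 43.9% and 33.1% of their variance from counting.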
